A study of Mus musculus with 12 samples.

Results

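Wnt, Hedgehog, Bmp and Notch are the 4 signalling pathways examined here, through 33 named genes, in chromatin immunoprecipitation sequencing (ChIP-seq) of mouse back skin. The genes were chosen by name, with earlier results of these data known: 7 Hedgehog, 12 Wnt, 6 Bmp and 8 Notch genes, out of 21887 protein-coding genes with a position. A gene was given a peak when the peak's midpoint lay inside the gene or within 5 kb of its start or end (mm10 coordinates, RefSeq gene table of GRCm38.p6). The study holds 12 samples in 6 groups of 2, from skin of 8- to 10-week-old mice in the growth phase of the hair cycle, under a protocol of 5 Gy of ionizing radiation that the labels attach to every group, T0 included. In wild-type mice the groups are p53 at T0, p53 at 6 h, trimethylated lysine 4 of histone H3 (H3K4me3) at T0 and H3K4me3 at 6 h. In K17KO mice, a genotype that the labels write only in this short form, they are p53 at T0 and p53 at 6 h. The labels used here name neither a strain nor the animal behind each sample.

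These pathways are built alike. A secreted or membrane-bound ligand binds a receptor, extracellular inhibitors can trap the ligand or block the receptor, and an intracellular effector changes transcription. In skin, Wnt ligands and Shh drive the growing hair follicle, Bmp signals hold follicle stem cells at rest until inhibitors such as Noggin act, and Notch signals promote differentiation of the epidermis and of follicle cells. p53 is a transcription factor activated by DNA damage, and H3K4me3 marks the start regions of active genes.

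The values come from 3 deposited peak lists, with 2909 peaks in the p53 list that names no genotype, 1101 in the K17KO p53 list and 5464 in the H3K4me3 list. The first is called WT p53 below, because only the other p53 list names a genotype. No list names a library, a time or a replicate, so T0 could not be compared with 6 h, no value has a replicate error, and no test was made between the lists. A peak's fold enrichment is the authors' own value, the fragments piled up at its summit over the caller's background, with 1 added to both. The median peak rested on 7 fragments in the WT p53 list, 11 in the K17KO p53 list and 148 in the H3K4me3 list, and the sequencing depth is unknown. As a check of the tissue, the H3K4me3 list held peaks at 3 of 5 suprabasal keratinocyte markers (Krt1, Krt10 and Sbsn) and at 0 of 5 basal keratinocyte markers (Krt5, Krt14, Trp63, Itga6 and Col17a1). It held peaks at 1 of 5 dermal fibroblast markers (Col1a2), 1 of 4 melanocyte markers (Pmel) and 1 of 3 adipocyte markers (Plin1), and at 0 of 4 endothelial, 0 of 4 immune and 0 of 3 muscle markers. The share over all protein-coding genes was 23.9%, and the Sbsn peak lay 3.39 kb outside its gene. With 3 to 5 markers per cell type, these counts do not establish which cells gave the signal. The ubiquitously active Actb and Gapdh had no H3K4me3 peak within 5 kb, so absence from this list does not show absence of the mark.

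H3K4me3 peaks were found at 14 of the 33 genes (42.4%), against 23.9% of all protein-coding genes. With q-values limited to 0.1 the count was 11 of 33, against 22.0% of all. Of the 18 H3K4me3 peaks at these genes 5 missed that limit, against 10.3% of the whole H3K4me3 list. Among them were the only peaks of Fzd7, Ctnnb1 and Smad7. WT p53 peaks were found at 2 (6.06%, against 6.75%) and a K17KO p53 peak at 1 (3.03%, against 3.79%), so both p53 shares lay near those of all genes. By pathway, H3K4me3 peaks covered 7 of 12 Wnt genes, 3 of 6 Bmp genes, 3 of 8 Notch genes and 1 of 7 Hedgehog genes. By level, they covered 6 of 11 ligands, 3 of 6 receptors, 4 of 11 intracellular effectors and 1 of 5 extracellular inhibitors. All 3 p53 peaks lay in effector genes, which make up 11 of the 33. They were at Gli2 (Hedgehog) and Axin2 (Wnt) in WT, and at Rbpj (Notch) in K17KO. Gli2 (220 kb) and Rbpj (102 kb) are long genes, and neither WT peak met a q-value of 0.1. The differences between pathways and between levels were not tested, and each group holds only 5 to 12 genes. The order changed with the settings: among peaks in the upper 50% by fold Notch (3 of 8) stood above Wnt (2 of 12). With a window of 20 kb, where 32.9% of all protein-coding genes had an H3K4me3 peak, Bmp (5 of 6) stood highest. With q-values limited to 0.01, Notch (3 of 8) stood above Wnt (4 of 12), and receptors (1 of 6) and effectors (2 of 11) fell below the extracellular inhibitors (1 of 5).

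**Figure D1:**
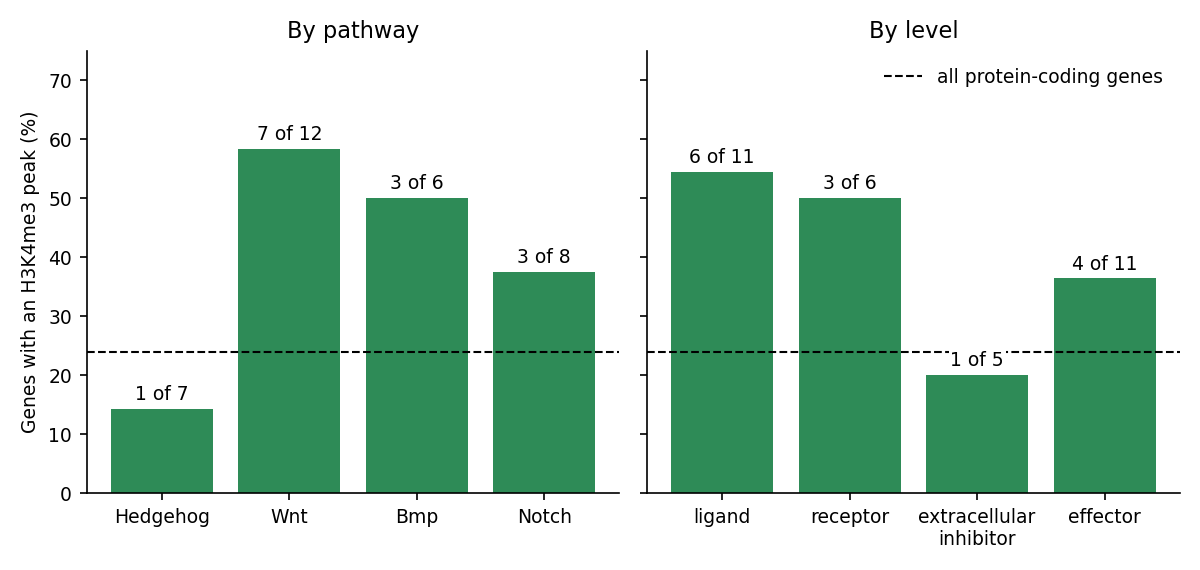
Share of genes with an H3K4me3 peak in the gene or within 5 kb (vertical axis, percent), for the 33 genes by pathway (left) and by level (right). Bars are shares, labels are counts, and the dashed line is the 23.9% of all protein-coding genes. With this window and all peaks, Wnt (58.3%) and ligands (54.5%) stand highest and Hedgehog (14.3%) and extracellular inhibitors (20%) lowest, an order that other settings change.

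Long genes hold more peaks, so the shares were also set beside genes of like span. Among genes of 10 to 30 kb, 6 of 10 members had an H3K4me3 peak, against 24.5% of all genes of that span, and among genes of 30 to 100 kb, 5 of 10, against 28.5%. Among shorter genes it was 2 of 8 (17.4% of all), and among genes over 100 kb 1 of 5 (33.8%). The windows of the 33 genes cover 1.95 Mb and held 18 H3K4me3 peaks, or 9.22 per Mb, against 4.07 per Mb over the windows of all protein-coding genes. For p53 the densities were 1.02 against 1.27 per Mb in WT and 0.512 against 0.608 per Mb in K17KO. The H3K4me3 density of these genes was thus above that of all genes, and the p53 densities were not.

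Start regions are shown first for the 3 genes with an H3K4me3 peak closest to an annotated start, since these peaks lie around the sequence that begins transcription. Of the 33 genes, 22 matched an entry of the RefSeq promoter table (GRCm38.p6). The 250 bases before the start are printed 5′ to 3′ on the gene's strand in lower case, with capitals marking each CG dinucleotide. The stretches are chr11:103773925-103774174 on the plus strand for Wnt3, a Wnt ligand, chr14:34502547-34502796 on the minus strand for Bmpr1a, a type I Bmp receptor, and chr12:112929496-112929745 on the minus strand for Jag2, a Notch ligand.
Wnt3: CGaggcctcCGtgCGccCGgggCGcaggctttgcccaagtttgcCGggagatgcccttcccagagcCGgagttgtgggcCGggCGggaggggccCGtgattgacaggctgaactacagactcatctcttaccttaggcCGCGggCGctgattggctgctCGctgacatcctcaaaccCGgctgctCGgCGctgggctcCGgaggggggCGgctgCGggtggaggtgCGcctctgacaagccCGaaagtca
Bmpr1a: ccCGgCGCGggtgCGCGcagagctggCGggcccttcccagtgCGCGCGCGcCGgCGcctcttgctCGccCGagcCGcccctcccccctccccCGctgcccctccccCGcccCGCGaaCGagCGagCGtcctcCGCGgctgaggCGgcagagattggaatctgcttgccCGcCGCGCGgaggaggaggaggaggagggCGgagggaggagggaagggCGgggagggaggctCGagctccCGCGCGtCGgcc
Jag2: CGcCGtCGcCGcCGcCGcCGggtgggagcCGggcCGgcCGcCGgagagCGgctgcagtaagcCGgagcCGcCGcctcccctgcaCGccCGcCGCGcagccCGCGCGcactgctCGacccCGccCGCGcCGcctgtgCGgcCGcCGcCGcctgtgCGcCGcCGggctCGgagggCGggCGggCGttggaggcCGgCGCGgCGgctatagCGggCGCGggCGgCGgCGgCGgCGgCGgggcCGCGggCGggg
The Wnt3 stretch holds 22 CG dinucleotides, the Bmpr1a stretch 36 and the Jag2 stretch 54, and the median over 21263 promoters of protein-coding genes was 10.

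At Wnt3 and Bmpr1a, 2 H3K4me3 peaks were centred on either side of the start. The Bmpr1a start lies between its peaks, and the Wnt3 start lies at the edge of its downstream peak, just inside it. The Wnt3 peaks (chr11:103773559-103773842 and chr11:103774174-103774538) were centred 475 bases upstream and 181 bases downstream of it, with 331 bases between them. The Bmpr1a peaks (chr14:34502938-34503405 and chr14:34502014-34502402) were centred 625 bases upstream and 338 bases downstream, with 535 bases between them, and the printed Bmpr1a stretch lies whole in that gap. The printed Wnt3 stretch lies in its gap except for its last base, where the downstream peak begins. At Jag2 a single peak (chr12:112928914-112929355) was centred 361 bases downstream of the start, and its near edge lies 141 bases from the printed stretch. At Rbpj, Fzd7 and Ctnnb1 single peaks were centred further downstream, at 700, 775 and 845 bases from the nearest annotated start. In these 6 genes the 250 bases before the start thus lay beside the peaks rather than under them, apart from the last base of the Wnt3 stretch.

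**Figure D2:**
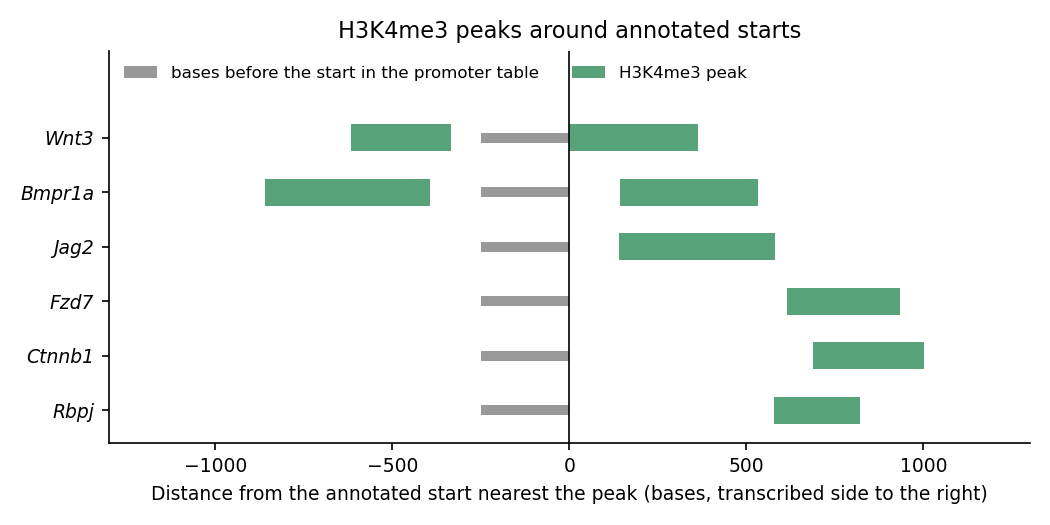
H3K4me3 peaks (green) around the annotated start nearest the peak for the 6 genes with a peak within 1.5 kb of one. The horizontal axis is the distance from the start in bases, with the transcribed side to the right, and the grey bars are the 250 bases before the start. Peaks lie on both sides at Wnt3 and Bmpr1a and only downstream at Jag2, Fzd7, Ctnnb1 and Rbpj.

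The CG content of the start regions was compared between members with and without such a peak. The 8 promoter entries (6 genes) with an H3K4me3 peak within 1.5 kb held 17 to 54 CG dinucleotides, with a median of 30. The 20 entries (16 genes) without one held 5 to 44, with a median of 18. Some genes counted more than once: Lef1 gave 4 of the 20, with 5 to 14, and Ctnnb1 and Rbpj each gave 2 of the 8. The ranges overlap: the Wnt4 entry has 44 CG dinucleotides and the Ptch1 entry 41, and neither has a peak within 1.5 kb. The distance of 1.5 kb was chosen after the positions had been seen.

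**Figure D3:**
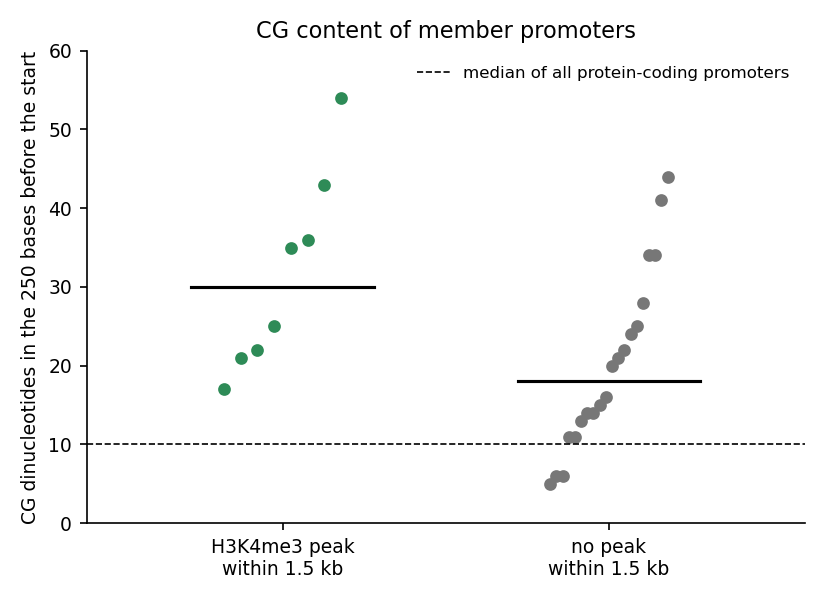
CG dinucleotides in the 250 bases before the start (vertical axis) for the 28 promoter entries of the member genes, by whether an H3K4me3 peak lies within 1.5 kb. Points are entries, solid lines are group medians (30 and 18), and the dashed line is the median of 10 over all protein-coding promoters.

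Motifs were looked for in the same 250 bases. The p53 decamer motif (given by name only, and reading the same on both strands) was present in 1 of 28 entries, that of Rbpj starting at position 53590486, against 6.31% of all protein-coding promoters. The letters CATG, which form the core of one version of that decamer and can overlap it, occurred in 10 of 28 entries (35.7%), against 48.5% of all. TATAAA, on either strand, occurred in 3 of 28 (10.7%, at Dkk1, Lef1 and Ctnnb1), against 11.6% of all. These are matches of letters in a short window. The p53 peaks themselves lie outside these windows and their sequence was not used here.

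Among the ligands, H3K4me3 peaks lay at 3 of 5 Wnt ligand genes, Bmp2, Jag2 and Dll1. Wnt10a, a ligand of the hair follicle and of sweat glands and teeth, had a 1.62-fold peak of 116 fragments over a background of 71.1, centred 31 bases from an end of the gene and also inside the noncoding gene Gm32099. Wnt3 had peaks of 1.90-fold (55 fragments over 28.5) and 1.59-fold (60 over 37.4) at its start, both of which also lie inside the gene model of the neighbouring ligand Wnt9b. A further Wnt3 peak of 2.92-fold (32 over 10.3) lay 21.2 kb inside the gene. Wnt5a, which signals mainly without beta-catenin, had its 1.62-fold peak (75 over 45.8) 5.12 kb from the nearer end.

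Bmp2 had the widest H3K4me3 peak of the 33 genes, 660 bases at 1.81-fold with 120 fragments over 65.9, centred 471 bases from an end. The Jag2 peak had 118 fragments over 69.2, and 53.3% of the list had a lower fold. Dll1, another Notch ligand, had a 2.16-fold peak (74 over 33.7) outside the gene, 4.05 kb upstream of a start. It lay nearest the 5 kb limit of the members counted. Just beyond that limit were Smo, the Hedgehog signal transducer, with an H3K4me3 peak at 7.40 kb, and the ligand gene Bmp4 with one at 7.74 kb. The ligand genes Shh, Wnt4, Wnt10b and Jag1 had no peak of any list within 5 kb, with the nearest H3K4me3 peak 139, 381, 91.7 and 1340 kb away.

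Among the receptors, Ptch1 stood apart. Ptch1, the Hedgehog receptor that holds Smo inactive and is itself a target of the pathway, spans chromosome 13 from 63508328 to 63573460. Its single H3K4me3 peak, from 63554446 to 63554806, had 6.82-fold enrichment and ranked 10 of 5464 peaks by fold. It rested on 21 fragments (95% exact Poisson interval 13.0 to 32.1, counting error only) over a background of 2.23. It lay inside the gene, 11.1 kb downstream of the annotated start and 18.8 kb from the nearer end.

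The other receptor peaks lay at starts and had low folds on many fragments. Bmpr1a had peaks of 1.24-fold (226 fragments over 182) and 1.32-fold (209 over 158). Fzd7, a Frizzled receptor for Wnt ligands, had a 1.28-fold peak (201 over 157). The Fzd7 peak and the 1.24-fold Bmpr1a peak missed a q-value of 0.1, with −log10 q of 0.608 and 0.316. The Notch receptor genes Notch1 and Notch2 had no peak of any list within 5 kb. Their nearest K17KO p53 peaks lay 48.2 and 42.1 kb away and their nearest H3K4me3 peaks 77.5 and 110 kb away.

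Among the extracellular inhibitors, the H3K4me3 peak was at Sfrp1, a secreted decoy that binds Wnt ligands, at 1.62-fold with 125 fragments over 76.7, centred 394 bases from an end of the gene. Dkk1, a secreted blocker of the Wnt co-receptor, the related Dkk3, Hhip, which binds Hedgehog ligands at the cell surface, and Nog, which encodes the Bmp antagonist Noggin, had no peak of any list within 5 kb. Their nearest H3K4me3 peaks lay between 199 kb (Nog) and 534 kb (Dkk1) away.

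Among the effectors, Axin2, a feedback inhibitor and widely used target gene of Wnt signalling, was the only one of the 33 genes with both a WT p53 and an H3K4me3 peak. Axin2 spans chromosome 11 from 108917828 to 108950783. Its p53 peak, from 108926593 to 108926808, lay inside the gene 6.35 kb downstream of the annotated start, at 3.15-fold on 5 fragments (95% exact Poisson interval 1.62 to 11.7) over 0.906. Its −log10 q of 0.376 is the lowest in the WT p53 list, a value that 188 of the 2909 peaks have. The Axin2 H3K4me3 peak was 1.99-fold (55 fragments over 27.1), 21.4 kb downstream of the start and 14.8 kb from the p53 peak.

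Gli2, a transcription factor that carries the Hedgehog signal, had the other WT p53 peak. It lay on chromosome 1 from 118888041 to 118888256, inside the gene and 54.1 kb from the nearer end, at 3.37-fold on 7 fragments (95% exact Poisson interval 2.81 to 14.4) over 1.37. Its −log10 q was 0.656, and 12.1% of the list had a lower fold, against 7.53% below the Axin2 peak. Neither the Gli2 nor the Axin2 peak met a q-value of 0.1, which 1155 of the 2909 WT peaks (39.7%) also missed. Gli2 spans 220 kb, and among all protein-coding genes over 100 kb 24.8% had a WT p53 peak.

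Rbpj, the DNA-binding protein through which Notch receptors act, had the K17KO p53 peak and 2 H3K4me3 peaks. The p53 peak, on chromosome 5 from 53653576 to 53653909, was 4.63-fold on 8 fragments (95% exact Poisson interval 3.45 to 15.8) over 0.945, with a −log10 q of 2.08 and 51.6% of its list below it in fold. It lay inside the gene 3.70 kb from an end and 63.3 kb downstream of the nearest annotated start. The H3K4me3 peak near the start was 1.68-fold on 188 fragments over 111. The other, still inside the gene model but 25.8 kb upstream of the nearest start of the promoter table, was 3.17-fold on 17 fragments over 4.67. Rbpj spans 102 kb, and among genes over 100 kb 9.84% had a K17KO p53 peak.

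None of the 3 p53 peaks overlapped an H3K4me3 peak or a peak of the other p53 list. Such overlaps were rare over the whole lists: 28 of 2909 WT p53 peaks (0.963%) and 67 of 1101 K17KO p53 peaks (6.09%) overlapped an H3K4me3 peak by at least 1 base, and 9 WT p53 peaks (0.309%) overlapped a K17KO one. The absence of overlap at these genes is thus the usual case in these lists. The nearest K17KO p53 peak to the Gli2 site lay 1410 kb away and to the Axin2 site 523 kb away, and the nearest WT p53 peak to the Rbpj site lay 689 kb away. A further 5 members had a WT p53 peak between 5 and 20 kb away. These were Wnt10b (7.89 kb), Sfrp1 (11.7 kb), Dkk1 (12.3 kb), Hes1 (13.7 kb) and Ctnnb1 (14.2 kb). Of these 4 are Wnt genes, the largest group of members (12 of 33). With a window of 20 kb the count was thus 7 of 33, against 10.8% of all protein-coding genes. Within the same distance no further member had a K17KO p53 peak.

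The remaining effectors with an H3K4me3 peak had it close to a start or gene end. Ctnnb1, which encodes beta-catenin, had a 1.27-fold peak (194 fragments over 152), and Smad7, an inhibitory Smad, a 1.31-fold peak (198 over 151) centred 1.38 kb from an end. Both peaks missed a q-value of 0.1, with −log10 q of 0.452 at Ctnnb1 and 0.915 at Smad7. Lef1, the DNA-binding partner of beta-catenin in the hair follicle, Gli1 and Gli3, the Bmp effector Smad1, and the Notch target genes Hes1 and Hey1 had no peak of any list within 5 kb. In all, 18 of the 33 genes had none, against 15190 of all 21887 protein-coding genes.

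**Figure D4:**
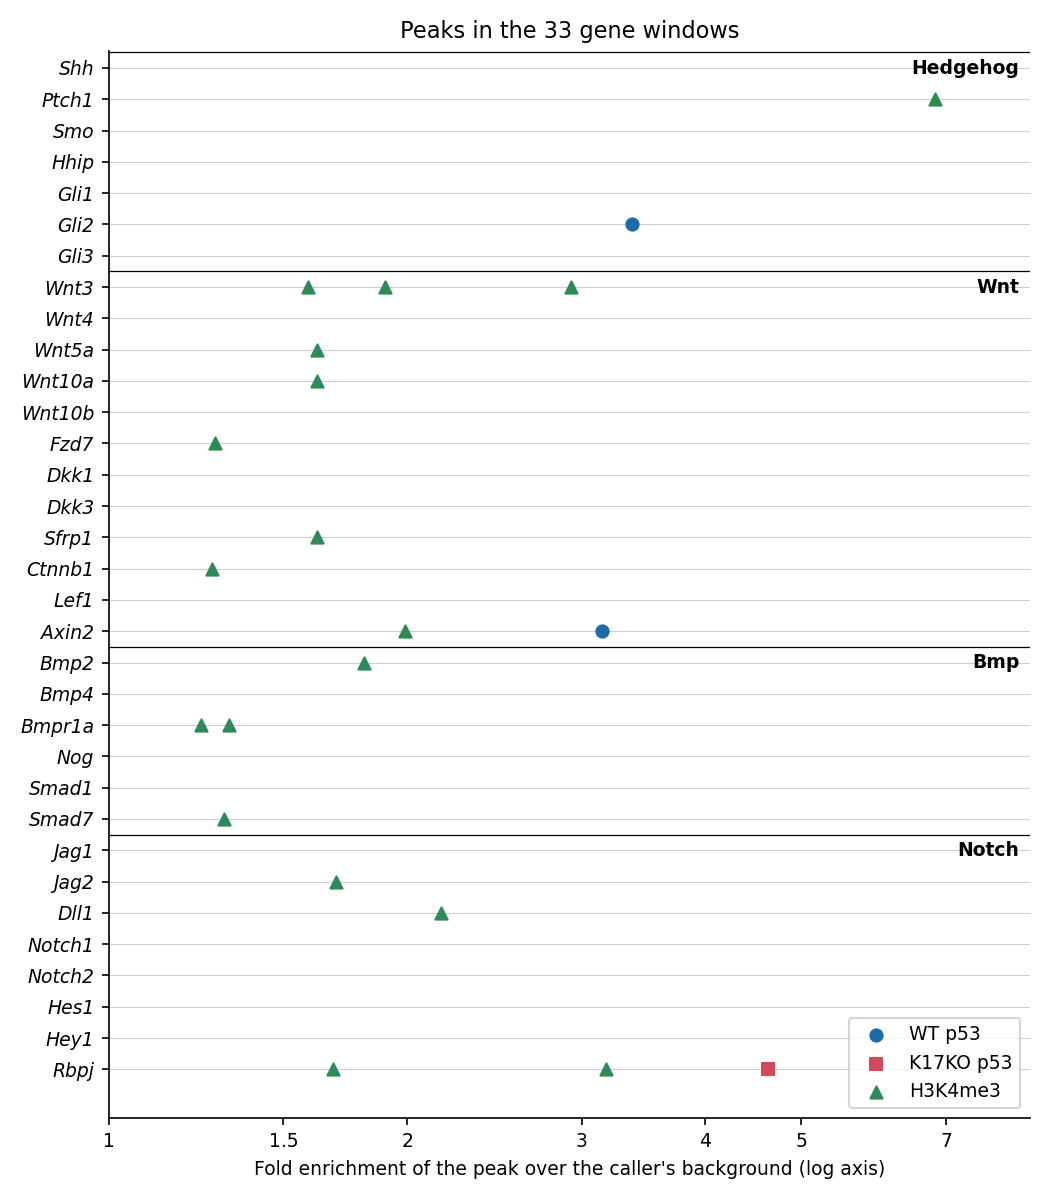
Fold enrichment of every peak in the 33 gene windows (horizontal log axis, fold over the caller's background), with genes in rows by pathway and ordered by level within it. Circles are WT p53, squares K17KO p53 and triangles H3K4me3, and rows without a mark had no peak. The 3 p53 peaks lie between 3.15-fold and 4.63-fold, and Ptch1 has the highest H3K4me3 fold at 6.82.

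The H3K4me3 peaks were split by their position at the same 1.5 kb. The 12 peaks within 1.5 kb of an annotated start or of a gene end (10 genes) had folds of 1.24 to 1.90 on 55 to 226 fragments, with backgrounds of 28.5 to 182. The 6 peaks further away, at Ptch1, Rbpj, Wnt3, Dll1, Axin2 and Wnt5a, had folds of 1.62 to 6.82 on 17 to 75 fragments, with backgrounds of 2.23 to 45.8. For Ptch1, Dll1, Axin2 and Wnt5a these were the only H3K4me3 peaks. Split instead at 1 kb from a gene end, the 8 nearer member peaks had a median fold of 1.62 and the 10 others 1.84. At that distance the ranges overlapped widely, with folds of 1.28 to 1.90 against 1.24 to 6.82, on 55 to 209 against 17 to 226 fragments. The whole list, split at 1 kb from any protein-coding gene end, had the same order of medians. Its median folds were 1.55 for the 3204 nearer peaks and 2.17 for the other 2260, on median fragments of 188 and 53. A fold is a ratio, and the 3 member peaks of highest fold (Ptch1, Rbpj and Wnt3) are also the 3 with the lowest background and the fewest fragments. The sources used here do not say whether a control library gave the background.

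**Figure D5:**
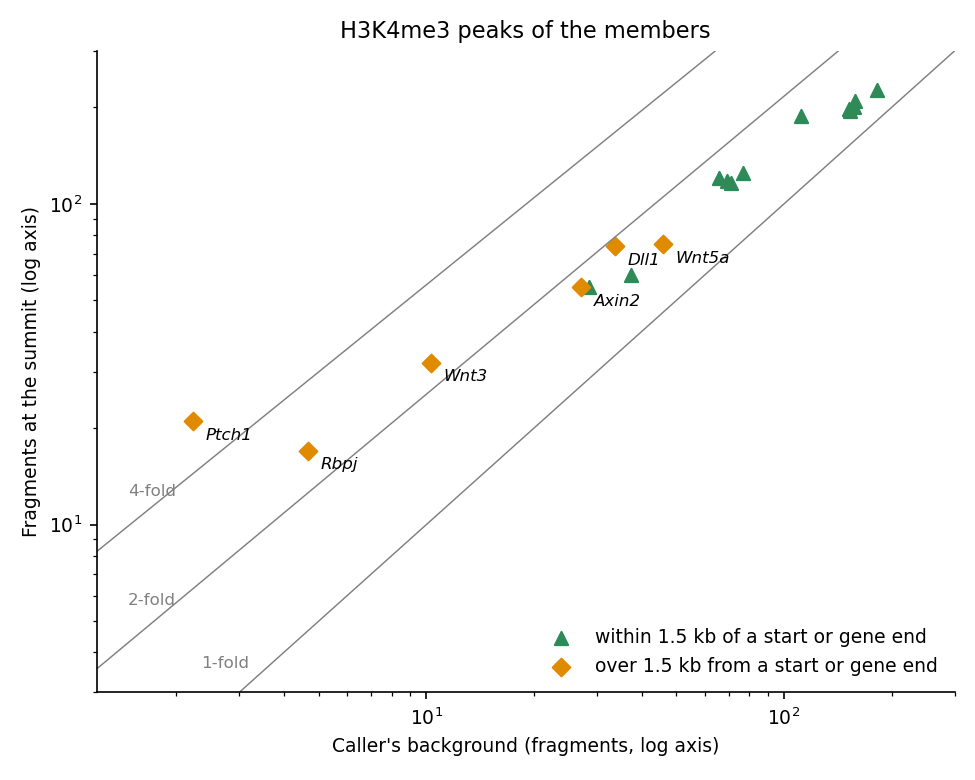
Fragments at the summit (vertical log axis) against the caller's background (horizontal log axis, fragments) for the 18 H3K4me3 peaks of the member genes. Green triangles lie within 1.5 kb of a start or gene end and orange diamonds further away, and the grey lines mark equal fold. The Ptch1 peak has the highest fold (6.82) on 21 fragments, and the Bmpr1a peak with 226 fragments has the lowest (1.24).

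A wider list of 161 other genes of the same pathways, also chosen with earlier results known, was counted in the same way. H3K4me3 peaks were at 61 of them (37.9%, against 23.9% of all protein-coding genes), namely 28 of 71 Wnt, 9 of 39 Bmp, 17 of 38 Notch and 7 of 13 Hedgehog genes. The Hedgehog share thus differed between the members (1 of 7) and the other genes of that pathway (7 of 13), and the difference was not tested. The Wnt count includes Wnt9b, through the 2 peaks also counted at the start of Wnt3. The highest H3K4me3 folds were at Kif7 (5.65), Hhat (4.64) and Disp1 (2.63) for Hedgehog, at Rnf43 (4.60), Tcf7l2 (3.59) and Fzd9 (2.30) for Wnt, at Chrd (2.92), Chrdl2 (2.78) and Id2 (2.18) for Bmp, and at Fbxw7 (3.51), Dll4 (2.59) and Neurl1a (2.54) for Notch. Kif7 is a ciliary kinesin of the Hedgehog pathway, and Rnf43 a ubiquitin ligase that removes Frizzled receptors.

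WT p53 peaks were at 13 of the 161 (8.07%, against 6.75%). Among the Wnt genes these were the ligands Wnt9a (3.94-fold) and Wnt11 (4.59), the co-receptors Lrp5 (3.60) and Lrp6 (4.52), the receptors Ror1 (3.86) and Ror2 (4.38), and Dvl2 (4.05), which relays the receptor signal. The others were Hhat (4.52), an enzyme that lipidates Hedgehog ligands, Bmp10 (4.02), the receptor Acvr2b (4.39), Bmper (3.51), and the Notch coactivators Maml2 (4.81) and Maml3 (3.94), which each had 2 peaks. Lrp5, Lrp6, Ror1, Ror2, Hhat, Bmper, Maml2 and Maml3 each span over 100 kb, and 24.8% of all genes of that span had a WT p53 peak. The 13 genes were not recounted at a q-value limit of 0.1, which 39.7% of all WT p53 peaks missed. K17KO p53 peaks were at 6 of the 161 (3.73%, against 3.79%): Apcdd1 (5.84), an inhibitor of Wnt signalling, Gdf6 (5.25), the receptor Acvr1 (4.12), Tcf7 (3.89), Wls (3.86), which carries Wnt ligands to the cell surface, and the Hedgehog inhibitor Sufu (2.90). No gene of the wider list and none of the 33 had a peak in both p53 lists, which 110 of the 21887 protein-coding genes (0.503%) had, so a count of 0 says nothing particular to these pathways. Both p53 shares again lay near those of all protein-coding genes.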

How the data were processed

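ChIP-seq of p53 and H3K4me3 was analysed from 3 deposited peak lists with 10 columns each. The tools were Bowtie2 2.2.5, SAMtools 1.7 and MACS2 2.1.2 with build mm10, per the submitters' processing notes; what each did is unstated there. Which libraries, control and threshold lie behind a list is likewise unstated. The deposited fold is a ratio over background. Each peak also has a deposited −log10 p-value and −log10 q-value from the caller. The deposited score is 10 times the −log10 p cut to a whole number, and the deposited summit offset counts bases from the peak's start. These values describe peaks within a list and were not compared between lists.

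Fragments and background were recovered from fold and −log10 p (fold as fragments plus 1 over background plus 1, p as the upper Poisson tail above the fragment count), within 0.001 for 100% of the peaks of each list. Positions came from RefSeq tables of GRCm38.p6, which shares mm10 coordinates; the gene table gives no strand and no exons, so exons and introns were not told apart. Distances from an annotated start or gene end were split at 1.5 kb, and the printed stretches chosen, after the positions were seen. Members, gene lists and roles were chosen with earlier results of these data known. No set test was made: counts stand beside the share of 21887 protein-coding genes counted alike. All members are accounted for, and of the wider list the genes with a p53 peak and the 3 of highest H3K4me3 fold per pathway are named. Peak assignment was tested on simulated data, where 200 of 200 peaks planted inside gene windows were recovered among 21887 genes. The same window served for planting and assigning, so the test checks the code and not which gene a real peak belongs to. Python 3.11.15, pandas 2.3.3 and SciPy 1.17.1 were used.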

Additional observations from a re-analysis of the deposited data

How the results depend on the processing

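Windows, peak positions and thresholds were varied in 11 ways. The count of members with a K17KO p53 peak (1) was the same under the 10 that apply to it, and the overlap of member p53 peaks with H3K4me3 (0) under all 11, which include a distance of 1 kb in place of overlap. With q-values limited to 0.1 or 0.01 the 2 WT p53 calls were lost (0 members, 0 peaks), against 4.07% and 0.822% of all protein-coding genes with a peak. They were also lost in the upper 50% by fold (3.58% of all) and within 5 kb of either gene end (2.72% of all). With 20 kb on either side they became 7 members and 7 peaks (10.8% of all). The members with an H3K4me3 peak ranged from 7 (upper 50% by fold) to 17 (20 kb on either side, where 32.9% of all protein-coding genes had one). The order of the pathways by share was not stable: Wnt stood highest in the main setting, Notch (3 of 8) at a q-value limit of 0.01 and in the upper 50% by fold, and Bmp with 20 kb (5 of 6) and within 5 kb of either gene end (3 of 6). Hedgehog stood lowest under all 10 settings. Ligands stood highest among the levels except with windows of 0, 1 and 20 kb, where receptors did. With q limited to 0.1, 11 members had an H3K4me3 peak (22.0% of all protein-coding genes), and 2 effectors did. At 0.01 there were 9 members and 11 peaks (18.4% of all protein-coding genes), with 4 Wnt genes, 1 Bmp gene, 2 effectors and 1 receptor. In the upper 50% by fold there were 7 members and 9 peaks (10.8% of all), with 2 Wnt genes, 1 Bmp gene, 2 effectors, 1 receptor and 0 extracellular inhibitors. With 20 kb there were 5 Bmp and 2 Hedgehog genes. Within 5 kb of either gene end there were 10 members (21.5% of all), with 0 Hedgehog genes and 2 effectors. With peaks inside another protein-coding gene left out, the H3K4me3 count stayed at 14 (18.7% of all), Wnt3 by its peak inside the gene. The p53 peaks rested on 5 to 8 fragments. Each setting changed which peaks were counted for a gene, and the cause of the changes in order was not tested.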
